A study of Rattus norvegicus with 8 samples.

Results

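Sox genes encode transcription factors that share a DNA-binding domain, the HMG box, with the testis-determining factor SRY. The 9 Sox genes described here, Sox1, Sox2, Sox4, Sox5, Sox6, Sox8, Sox9, Sox10 and Sox11, were taken by their symbols from the hypothalamic transcriptome of cannabis-exposed and control rats. They had 69 alternative polyadenylation (APA) sites, of 98356 sites in the data, and were 9 of the 18003 gene symbols given to those sites. The tissue was the hypothalamus, given as mediobasal hypothalamus in the series' description, of adult male Long-Evans rats. In total, 4 air-treated controls (replicates 1, 2, 3 and 4) were placed in the vapor chamber with an unfilled vaporizer, and 4 rats (replicates 1, 2, 3 and 5) were exposed to vaporized cannabis plant matter for 10 min. All rats had fed freely, and food was withheld for the 1 hr between exposure and tissue collection.

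SOX proteins bend DNA and act with partner factors, and closely related members are sorted into lettered subgroups. SoxB1 factors (Sox1 and Sox2) keep neural progenitors undifferentiated, and Sox2 stays on in adult astrocytes and tanycytes, the cells that line the third ventricle beside the hypothalamus. SoxC factors (Sox4 and Sox11) act in immature neurons. SoxD factors (Sox5 and Sox6) lack an activation domain of their own and modulate other SOX proteins. SoxE factors direct glia, with Sox9 in astrocytes and Sox10, together with Sox8, in oligodendrocytes, where Sox10 drives myelin genes.

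The assay, WTTS-Seq (Whole Transcriptome Termini Site Sequencing), covers only the 3′ end of a polyadenylated RNA. Hence each read marks 1 APA site, and levels do not scale with the length of a transcript. Values are normalized counts, the reads on a site divided by the size factor of the library. The 8 libraries had from 1159811 (air control replicate 4) to 3706778 reads (cannabis replicate 2) on sites, and 1 read was worth from 0.664 to 1.99 normalized counts. Of the 20734916 reads, 10190 lay on Sox sites. A Sox site had a median of 27 reads over all libraries, beside 34 for all sites, which limits what can be detected at single sites. Sites are numbered within a gene by their mean level, from the highest. The hypothalamic origin was checked with 17 peptide and factor genes, of which 16 were measured, and the neurohypophysial hormone genes Avp and Oxt led them. Genes listed for ventral midbrain dopamine neurons were also present and some differed between the groups, as given beside Sox6 below.

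Sox gene totals, the sums over all sites of a gene, spanned a wide range. Sox5 was highest with a mean of 374 normalized counts over the 8 libraries, and 4.95% of all gene symbols had a higher mean. Of the Sox5 level, 59.7% lay on its site 1, an intronic site. Sox2 followed with 241, and lay below Sox5 in all libraries except air control replicate 4 and cannabis replicate 1. Sox10 (137), Sox9 (134) and Sox6 (131) could not be ordered, since their ranges overlapped. Sox4 came next with 74.9 and Sox8 with 52.8, again with overlapping ranges. Sox11, with 23.7, lay below Sox8 in every library, and Sox1 was near the limit of detection with 2.51. In bulk tissue, fewer cells of a type and less RNA per cell cannot be told apart.

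No Sox gene total differed between the groups beyond the spread between rats. None of the 9 totals had P under 0.01 or under 0.05 in limma, beside 0.278% and 2.41% of all gene symbols. None had P under 0.01 in edgeR, DESeq2 or limma-voom on the recovered reads either, where 0.3%, 0.423% and 0.328% of all symbols did. The limma P ranged from 0.246 (Sox9) to 0.874 (Sox1), and every adjusted P was 0.999, while 0.00555% of all symbols had an adjusted P under 0.1. The groups overlapped in each of the 9 genes, whereas 1.98% of all gene symbols had groups that did not overlap. With 4 libraries against 4, the exact permutation test could not give a P below 0.0286. The intervals below show which changes remain possible.

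**Figure D1:**
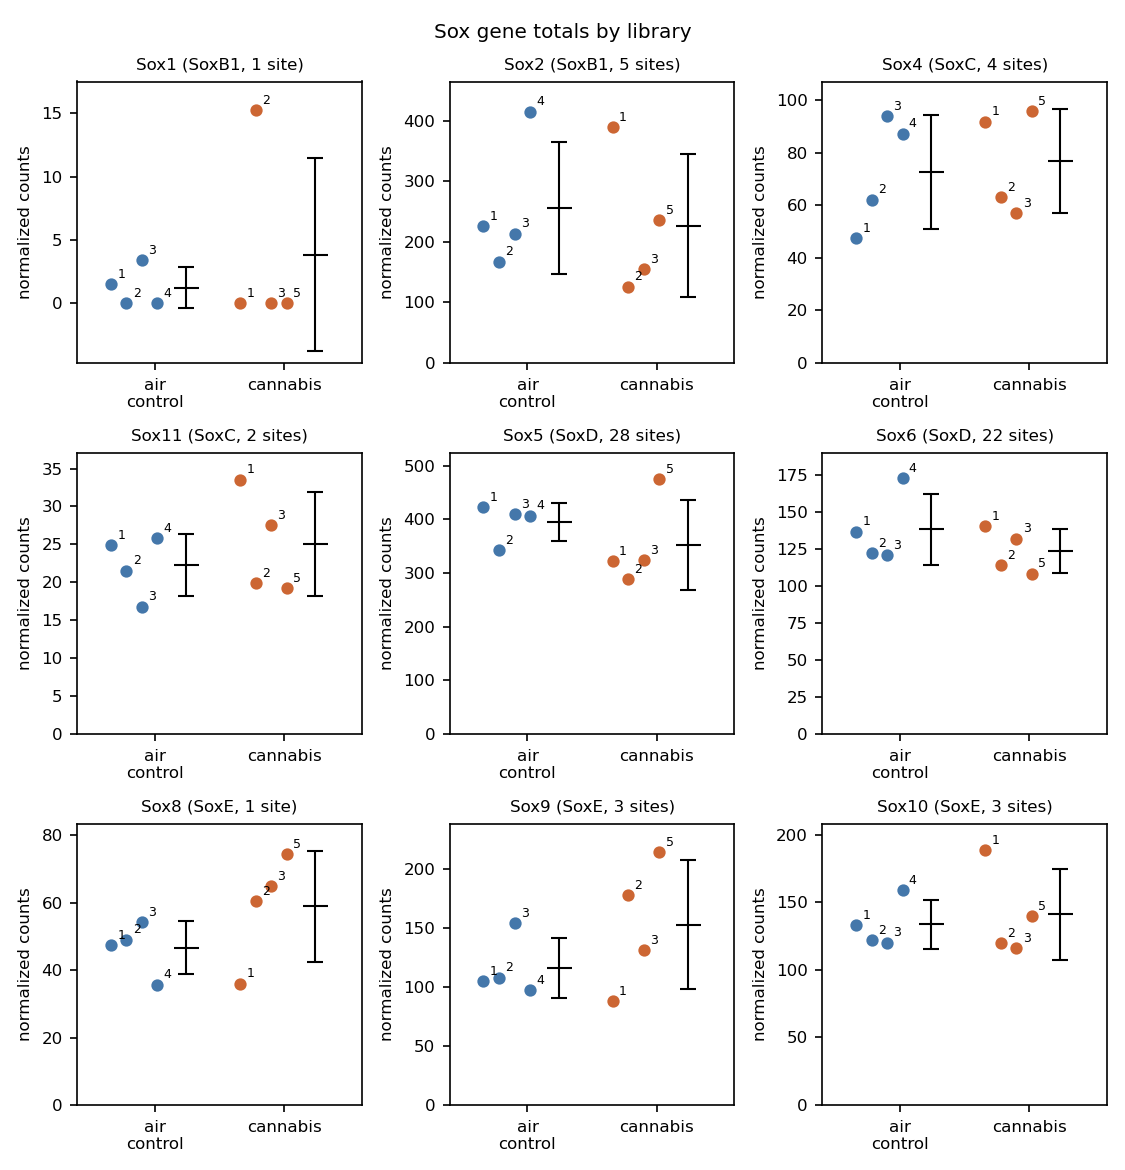
Total level of each Sox gene in normalized counts (vertical axis, linear, a scale for each gene) in the 4 air control and 4 cannabis libraries. Points are libraries with their replicate numbers, and the bars beside them give the mean and SD (n = 4). Air control and cannabis points overlap in every panel, and in the Sox2 panel air control replicate 4 (415) and cannabis replicate 1 (390) are the high points of their groups.

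Among the SoxB1 genes, Sox2 had normalized counts of 227, 168, 214 and 415 in air control replicates 1 to 4. Cannabis replicates 1, 2, 3 and 5 had 390, 126, 155 and 236. The highest value of each group was in its shallowest library. The means were 256 ± 109 and 227 ± 118 (SD, n = 4 each), a log2 fold change of -0.22 with a 95% interval from -0.98 to 0.53 (exact permutation test, P = 0.6). Sox2 also had the widest spread of the well-detected members, with a coefficient of variation of 44.1% over the 8 libraries. Sox1 was seen in 3 libraries only, with 2 reads in air control replicate 1, 5 in air control replicate 3 and 23 in cannabis replicate 2. A library without a read can hide up to 3 reads, worth from 2.30 to 5.96 normalized counts in the libraries without a Sox1 read, so Sox1 could not be compared at this depth (log2 fold change 0.15, 95% interval from -1.86 to 2.16).

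Among the SoxC genes, Sox4 had 47.5, 62.2, 94.0 and 87.4 normalized counts in the air control libraries. In the cannabis libraries Sox4 had 91.9, 63.1, 57.1 and 96.0. Each group held a low and a high pair of libraries, and the means of 72.8 ± 21.7 and 77.0 ± 19.8 differed by less than the spread between replicates (log2 fold change 0.10, 95% interval from -0.52 to 0.71). Sox11 had 24.9, 21.5, 16.8 and 25.8 normalized counts in the air control libraries. In the cannabis libraries Sox11 had 33.5, 19.9, 27.6 and 19.2, so that both the highest and a low value came from exposed rats. Its means were 22.3 ± 4.08 and 25.1 ± 6.80 (log2 fold change 0.15, 95% interval from -0.53 to 0.83, exact permutation test P = 0.486).

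Among the SoxD genes, Sox5 had 423, 342, 410 and 407 normalized counts in the air control libraries. In the cannabis libraries it had 322, 288, 325 and 475. Of the exposed rats, 3 lay below all controls and the fourth lay above them. The means were 395 ± 36.0 and 353 ± 83.6 (log2 fold change -0.19, 95% interval from -0.63 to 0.25, exact permutation test P = 0.371). Sox6 had 137, 122, 121 and 173 normalized counts in the air control libraries. Sox6 had 140, 114, 132 and 108 in the cannabis libraries, which sat among or just below the controls. Its means were 138 ± 24.2 and 124 ± 14.9 (log2 fold change -0.15, 95% interval from -0.61 to 0.31). Sox6 varied the least of the 9 genes over all libraries, with a coefficient of variation of 15.4%.

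Among the SoxE genes, the astrocyte factor gene Sox9 had 105, 108, 154 and 97.3 normalized counts in the air control libraries. Sox9 had 88.2, 177, 131 and 214 in the cannabis libraries, where both the lowest and the highest value of all 8 libraries were found. The means of 116 ± 25.7 and 153 ± 54.9 gave the largest fitted change among the 9 totals, a log2 fold change of 0.34 with a 95% interval from -0.27 to 0.95 (exact permutation test, P = 0.257). Without cannabis replicate 1, the lowest library and the shallowest of its group, the log2 fold change was 0.58 and limma's P fell below 0.05. In that setting 4.18% of all gene symbols had P under 0.05. Over the 8 libraries Pearson's r of the Sox9 total with depth was 0.674 (exact permutation test, P = 0.0664, adjusted 0.149), and the part of depth was not tested. Sox8 had 47.5, 49.1, 54.4 and 35.7 normalized counts in the air control libraries. Sox8 had 36.0, 60.4, 64.9 and 74.5 in the cannabis libraries, so that 3 exposed rats lay above all controls and cannabis replicate 1 lay next to the lowest control. Its means were 46.7 ± 7.86 and 59.0 ± 16.4 (log2 fold change 0.30, 95% interval from -0.31 to 0.91, exact permutation test P = 0.257). Sox10, the oligodendrocyte factor gene, had 133, 122, 120 and 159 normalized counts in the air control libraries. Sox10 had 189, 120, 116 and 140 in the cannabis libraries, and the shallowest library of each group was its highest. Its means were 134 ± 17.8 and 141 ± 33.5 (log2 fold change 0.06, 95% interval from -0.42 to 0.54).

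The 9 genes differed widely in the number of their APA sites. Sox5 had 28 sites and Sox6 had 22, together 50 of the 69 (72.5%). Only 0.689% of all gene symbols had more sites than Sox5, and 1.13% had more than Sox6. Both SoxD genes are built of many exons with long introns, whereas the intronless genes Sox1, Sox2, Sox4 and Sox11 had 1, 5, 4 and 2 sites. Sox8 had 1 site, and Sox9 and Sox10 had 3 each.

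Within a gene, the reads fell on the sites in different ways. Sox2 and Sox9 used a main site, with 87.1% and 92.7% of the level of the gene over all libraries. The main Sox5 site held 59.7% and the main Sox10 site 56.1%. Sox6 had no main site, since its highest site held 21.2%. Expressed as the number of equally used sites that would give the same concentration, Sox6 used 9.08 sites, Sox4 2.80, Sox5 2.67, Sox10 2.03, Sox11 1.90, Sox2 1.30 and Sox9 1.16. Sox5 thus had a dominant site beside a long series of weak ones. Of the 69 Sox sites, 18 had a mean of at least 10 normalized counts, 43 had a mean under 5 and 37 had a read in every library. The location class in the study's annotation was found for 4 sites, and it was exonic for Sox2 site 1 and intronic for Sox5 site 1, Sox5 site 23 and Sox6 site 5.

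**Figure D2:**
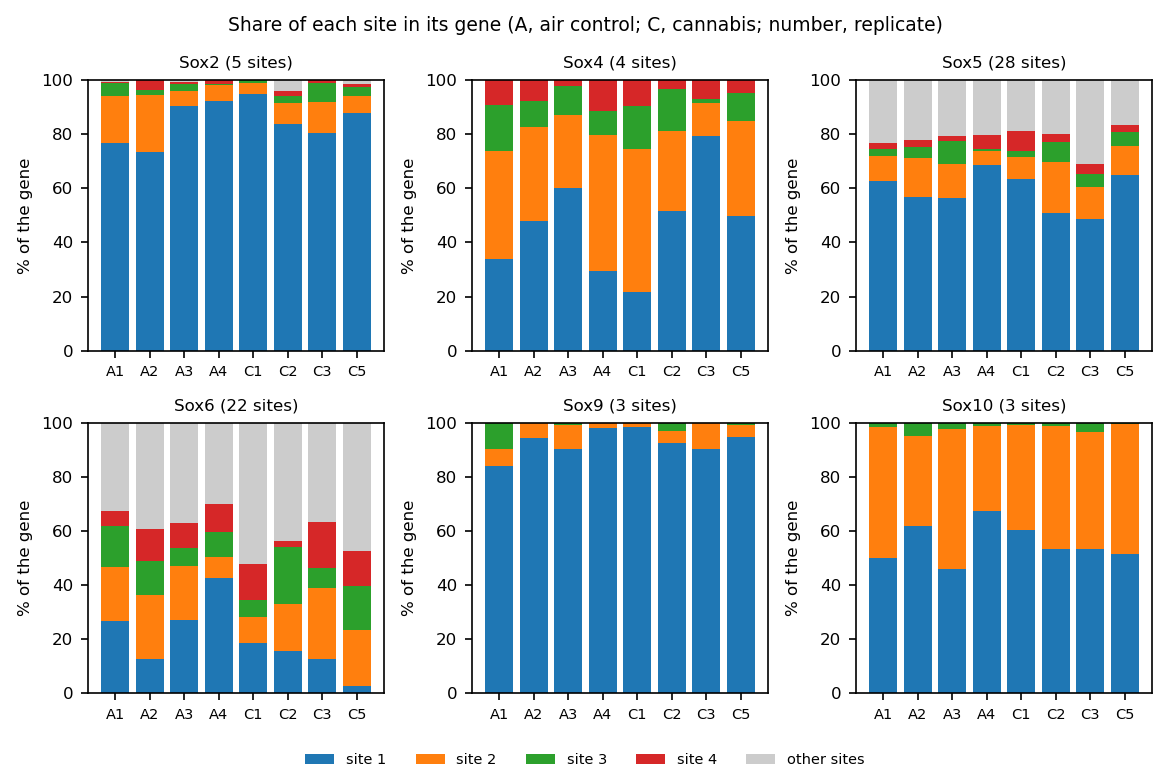
Share of each site in the total of its gene, in percent (vertical axis), for each library (A, air control; C, cannabis; the number is the replicate) in the 6 Sox genes with 3 or more sites. Colours mark the 4 highest sites and grey the rest, and Sox9 is almost all site 1 (92.7% over all libraries) while Sox6 site 1 ranges from 2.84% to 42.5%.

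The number of sites with a read did not separate the groups. In the air control libraries Sox5 had a read on 26, 24, 26 and 22 of its 28 sites. The cannabis libraries had a read on 21, 26, 28 and 25 sites of Sox5. When the expected number was computed at the depth of the shallowest library, Sox5 had 21.2 ± 0.549 sites in controls and 19.8 ± 2.42 after cannabis (exact permutation test, P = 0.314). Sox6 had reads on 18 to 20 of its sites in controls and on 19 to 21 after cannabis, and at equal depth on 16.5 ± 1.04 and 16.1 ± 1.34 (exact permutation test, P = 0.8). All sites of Sox4, Sox8, Sox10 and Sox11 had reads in every library.

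At single sites, 3 of the 69 Sox sites (4.35%) had P under 0.01 in limma, beside 0.381% of all 98356 sites. They were Sox6 site 5 and Sox5 site 23, both higher after cannabis (0.123% of all sites passed in that direction), and Sox5 site 10, which was lower (0.258%). Their adjusted P was above 0.999 over all sites, so none passed the threshold of 0.1, which 1 site of the whole table did (0.00102%). In all, 6 Sox sites (8.70%) had P under 0.05, beside 3.03% of all sites. The groups did not overlap at 4 Sox sites (5.80%), beside 2.0% of all sites, and these 4 all belonged to Sox5 and Sox6. Sites of 1 gene come from the same RNA and are not independent of each other. The authors kept sites of at least 16 reads in all. At each of the 3 sites with P under 0.01, and at the 4 where groups did not overlap, the group with the lower level did not reach 16 reads by itself. Such sites entered the data mainly or only through reads of the higher group. At Sox5 sites 16 and 27 the higher group did not reach 16 reads by itself either. These counts of sites are therefore a description and do not support a change. Over the 69 sites, 35 were higher and 34 lower after cannabis, with a median log2 fold change of 0.02.

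**Figure D3:**
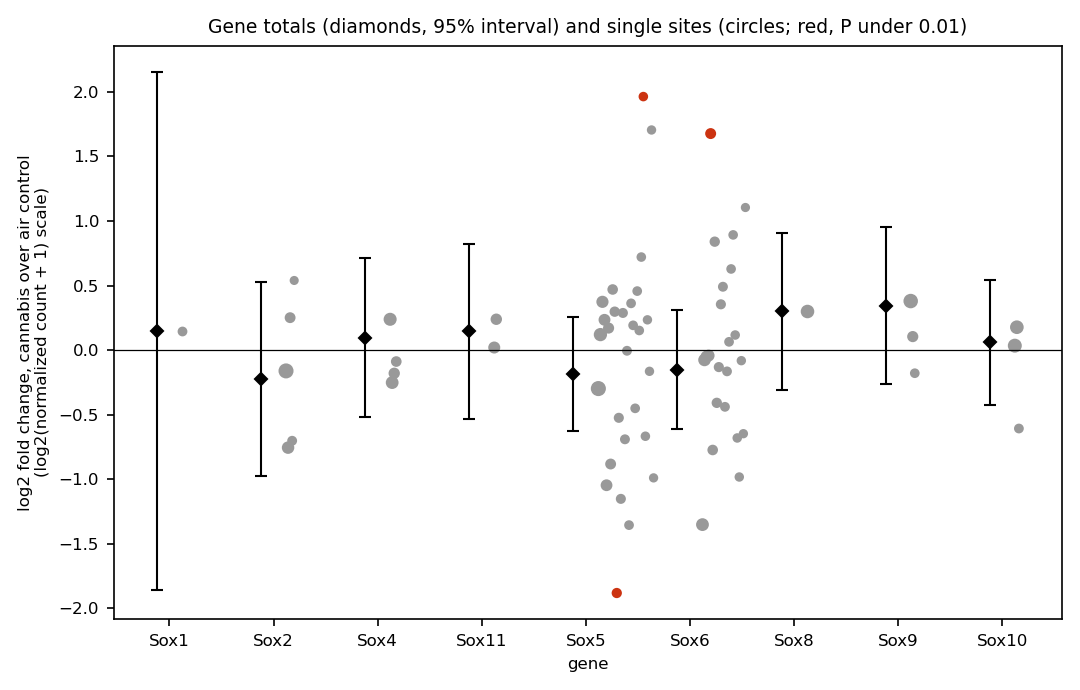
Log2 fold change of cannabis over air control on the log2(normalized count + 1) scale for each gene total (diamonds, bars are 95% intervals, n = 4 libraries a group) and for each of its sites (circles, larger for a higher mean level, red for P under 0.01). All 9 intervals of the totals include 0, and the sites of Sox5 spread from -1.88 to 1.96 around its total of -0.19.

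Sox6 site 5, an intronic site, had 3, 2, 5 and 1 reads in the air control libraries. It had 10, 19, 7 and 12 reads in the cannabis libraries. Each exposed rat had more reads than any control, and the same held for the normalized counts, 2.48 ± 0.606 in controls and 10.3 ± 2.75 after cannabis (SD, n = 4 each). The log2 fold change was 1.68 (SE 0.507), with P = 0.0033 in limma and 0.0286 in the exact permutation test, the smallest it can give. The site made up 1.87% ± 0.689 of the Sox6 level in controls and 8.41% ± 2.40 after cannabis. Its share differed from that of the other Sox6 sites by 1.93 on the log2 scale (limma, P = 0.00338, exact permutation test of the percent share P = 0.0286). The lowest share after cannabis was 5.22% (cannabis replicate 3, 95% Wilson interval from 2.55% to 10.4%) and the highest in a control was 2.78% (95% Wilson interval from 1.19% to 6.34%), and these intervals overlap. Without cannabis replicate 2 the log2 fold change was 1.57 and limma's P rose to 0.0126.

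Sox6 site 1, the highest site of the gene, went the other way without passing the threshold. It had 50, 13, 49 and 37 reads in the air control libraries. In the cannabis libraries it had 21, 27, 17 and 4 reads. The lowest control lay among the exposed rats, so that the groups overlapped. The normalized counts were 39.6 ± 24.4 and 15.95 ± 9.54, a log2 fold change of -1.35 (limma, P = 0.026, exact permutation test P = 0.114). Its share of Sox6 was 27.3% ± 12.2 in controls and 12.5% ± 6.85 after cannabis (exact permutation test, P = 0.0857). Leaving out air control replicate 2, the low control, moved the log2 fold change to -1.72 and limma's P to 0.00902. Leaving out cannabis replicate 5, the lowest library, moved it the other way to -0.76, and with the replicate number as a block it was -0.40. The block fit took no group difference from air control replicate 4 or cannabis replicate 5, whose numbers have no match in the other group. These were the highest and the lowest library in normalized counts. The extremes were 42.5% in air control replicate 4 (95% Wilson interval from 32.7% to 53.0%) and 2.84% in cannabis replicate 5 (95% Wilson interval from 1.11% to 7.07%).

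Some of the genes listed for ventral midbrain dopamine neurons, a part of which are known to express Sox6, differed between the groups. Of 11 such genes 9 were measured, and 4 fell after cannabis at P under 0.01 (0.178% of all symbols did), Slc6a3, En1, Ddc and Th, with a median log2 fold change of -0.81 over the 9 genes beside 0.05 over all genes. Their summed level was 864 to 1105 normalized counts in controls and 286 to 445 after cannabis, without overlap. Slc6a3, the dopamine transporter gene, had 270 ± 36.0 normalized counts in controls and 31.8 ± 22.0 after cannabis. Of the 9 genes, 8 were lower and 1 was higher after cannabis. Dopamine neurons also lie in the arcuate nucleus of the hypothalamus, which the paper discusses. En1, also on the list, had 31.9 ± 12.3 normalized counts in controls and 3.81 ± 1.00 after cannabis. Whether the RNA of the listed genes came from hypothalamus or midbrain was not tested. Among the 16 hypothalamic genes, Avp and Oxt rose at P under 0.01 (0.1% of all symbols did), and the sum over the list was 3424 to 5756 in controls and 7639 to 9668 after cannabis. Avp, with 1952 ± 996 and 4934 ± 1383, and Oxt, with 596 ± 244 and 1193 ± 343, made up most of the difference in that sum. The part of these differences in the Sox5 and Sox6 values was not tested.

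Sox5 site 23, also intronic, had 1, 0, 0 and 0 reads in the air control libraries. In the cannabis libraries it had 2, 2, 6 and 8 reads. All exposed rats had more reads than any control, but the numbers were close to the limit of detection, and the site reached 16 reads only through the exposed rats. With 0 reads, the share of the site in Sox5 could be up to 1.05%, 0.492% and 1.46% in air control replicates 2, 3 and 4, and cannabis replicates 1, 2, 3 and 5 had 0.772%, 0.461%, 1.82% and 1.29%. The first pair, with 2 reads each, lay below the limits of air control replicates 2 and 4. Cannabis replicate 2 also lay below the limit of air control replicate 3, and cannabis replicate 5 below that of air control replicate 4. Only cannabis replicate 3 lay above all of these limits. The mean share was 0.0433% ± 0.0865 in controls and 1.09% ± 0.597 after cannabis (exact permutation test, P = 0.0286). On the log2(normalized count + 1) scale the level was higher by 1.96 (SE 0.67, limma, P = 0.00793, exact permutation test P = 0.0286), and the share relative to the other Sox5 sites by 2.17 (limma, P = 0.00502). Limma's P for the level rose above 0.01 when any of air control replicates 2, 3 and 4 or cannabis replicates 1, 3 and 5 was left out, up to 0.0331.

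Sox5 site 10 had 8, 3, 5 and 6 reads in the air control libraries. In the cannabis libraries it had 0, 0, 1 and 5 reads, and cannabis replicate 5 lay within the range of the controls. The normalized counts were 6.18 ± 3.99 in controls and 1.21 ± 1.82 after cannabis, a log2 fold change of -1.88 (limma, P = 0.00852, exact permutation test P = 0.0857). The share relative to the other Sox5 sites differed by -1.71 (limma, P = 0.0191, exact permutation test of the percent share P = 0.0286). The call in the level was lost without any of air control replicates 1, 2 and 4 or cannabis replicates 1, 2 and 3, with a limma P of up to 0.0366. The call was also lost in edgeR, DESeq2 and limma-voom on the recovered reads.

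The other 2 sites at which the groups did not overlap, Sox5 sites 27 and 16, are named after their values were seen, and they were apart in normalized counts but tied in reads between some libraries. Sox5 site 27 had 0, 0, 1 and 0 reads in the air control libraries and 1, 2, 8 and 4 in the cannabis libraries, so that it too reached 16 reads almost wholly through the exposed rats. Sox5 site 16 had 4, 5, 4 and 2 reads in the air control libraries and 0, 2, 1 and 2 in the cannabis libraries. Over all sites, Sox5 had 15 higher and 13 lower after cannabis, and Sox6 had 9 higher and 13 lower.

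**Figure D4:**
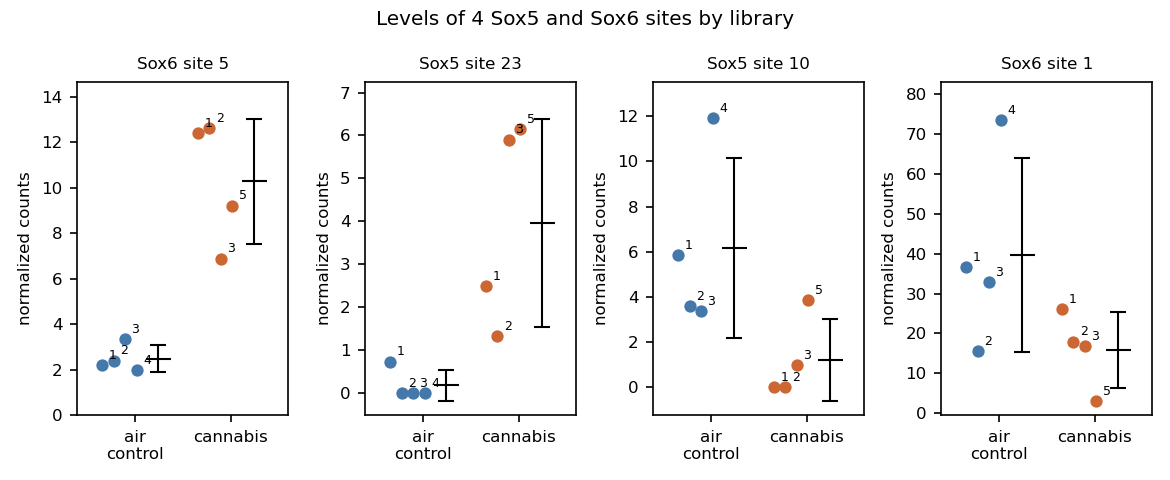
Normalized counts (vertical axis, linear, a scale for each site) of the 3 Sox sites with P under 0.01 and of Sox6 site 1 in the 4 air control and 4 cannabis libraries, with replicate numbers beside the points and bars for the mean and SD (n = 4). The groups are apart for Sox6 site 5 (2.48 against 10.3 on average) and Sox5 site 23, and overlap for Sox5 site 10 and Sox6 site 1.

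In site usage, the level of a site relative to the rest of its gene, 2 of 67 Sox sites (2.99%) had P under 0.01, beside 0.389% of the 57287 sites tested. They were Sox6 site 5 and Sox5 site 23, as described above, and none passed an adjusted P of 0.1, as no site of the whole table did. The main sites kept their share within the spread between rats. Sox5 site 1, which is intronic, held 61.2% ± 5.88 of the gene in controls and 56.9% ± 8.36 after cannabis (exact permutation test, P = 0.486). Sox2 site 1 held 83.3% ± 9.52 and 86.7% ± 6.27, and Sox9 site 1 held 91.7% ± 6.03 and 94.0% ± 3.56. Sox10 site 1 held 56.3% ± 10.1 and 54.7% ± 3.95, and Sox11 site 1 held 64.6% ± 9.27 and 60.0% ± 16.3. Sox4 site 1 varied most from rat to rat, from 21.6% to 79.3%, with means of 42.9% ± 13.9 and 50.5% ± 23.6.

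The largest of 5 correlations computed between pairs of totals over the 8 libraries was that of the oligodendrocyte genes Sox10 and Sox8, and it was negative. Pearson's r was -0.704 (exact permutation test, P = 0.0514, adjusted 0.257) and Spearman's rho was -0.619 (P = 0.115, permutation, adjusted 0.367). Within the groups, as deviations from the group means, r was -0.848. Without the 2 libraries farthest from the median of Sox10, air control replicate 4 and cannabis replicate 1, r was 0.191, so the relation rested on those libraries, which were also the 2 shallowest. Leaving out 1 library at a time, r ranged from -0.913 to -0.538. The lowest value was that without cannabis replicate 5 (exact permutation test, P = 0.000595, not adjusted), and it is given as the extreme of that range. The other pairs, Sox2 with Sox9, Sox1 with Sox2, Sox4 with Sox11 and Sox5 with Sox6, had r of -0.546, -0.538, -0.157 and 0.030 and adjusted P of 0.274 or higher.

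Depth went with some totals although the values are normalized. Of 9 relations, the strongest Pearson's r between depth and a total was that of Sox6, -0.798 (exact permutation test, P = 0.0176, adjusted 0.149), with a Spearman's rho of -0.714 (P = 0.0576, permutation, adjusted 0.156). Without air control replicate 4 and cannabis replicate 2, the libraries farthest from the median depth, r was -0.365, so the relation rested on those libraries. By rank the strongest relation was that of Sox1, with a Spearman's rho of 0.873 (P = 0.00595, permutation, adjusted 0.0536) and a Pearson's r of 0.677 (P = 0.0595, permutation, adjusted 0.149), which was 0.75 without those libraries. Sox1 had reads only in the 3 deepest libraries and was tied at 0 in the rest. The rank relation of Sox1 thus rests on those 3. The part of depth in the Sox1 and Sox6 values was not tested. Without the 2 shallowest libraries, a setting chosen after seeing the data, no Sox total had P under 0.01 (0.389% of all symbols did), 1 Sox site (Sox6 site 5) did (0.434% of all sites), and no Sox site did in usage (0.503%).

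By their pattern over the 8 libraries, the totals most like a Sox gene were sought among genes with a mean of at least 100 normalized counts. The highest Pearson's r is a maximum over 3653 or 3654 genes and these points share libraries and depth, so it is a description. Naa15 (0.978), Rasgef1b and Cdc5l were most like Sox2, LOC102551795 (0.966), Atp6v0a1 and Gpat4 most like Sox1, and Apeh (0.967), Cox8a and Efemp2 most like Sox4. Ppp3ca (0.957), Hdac9 and Ap2a1 were most like Sox11. Fndc5 (0.945), Pclo and Adarb2 were most like Sox5, and Ptges3 (0.969), Rbms3 and Arhgap15 most like Sox6. Furin (0.969), LOC103690082 and Serinc3 were most like Sox8, Pnck (0.975), Timp2 and S100pbp most like Sox9, and Gstt3 (0.978), Arfip2 and Ndufa11 most like Sox10.

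The genes around the Sox factors gave few calls. Of 11 other Sox family genes 7 were measured, and none had P under 0.01, with a median log2 fold change of 0.05, as over all genes. Sox12, another SoxC gene, was the highest with 122 ± 47.3 normalized counts in controls and 127 ± 55 after cannabis. Sox13, another SoxD gene, had 105 ± 41.4 and 89.2 ± 19.7. Of 17 partner factors, such as POU and PAX proteins, 16 were measured with a median of 0.15 and none passed, and the highest, Zeb1 and Nfia, had 286 ± 42.8 against 281 ± 59.4 and 240 ± 68.4 against 202 ± 24.8.

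Myelin genes, which Sox10 is known to activate, were all 14 measured and none passed. Of these, 12 were lower and 2 higher after cannabis, with a median log2 fold change of -0.16. Mbp, the myelin basic protein gene, had 37264 ± 6604 normalized counts in controls and 33857 ± 7942 after cannabis. The summed level of the list was 42402 to 56731 in controls and 35123 to 51830 after cannabis, so the groups overlapped.

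Markers of the cell types that hold Sox factors did not pass either. The list medians of the log2 fold change were 0.05 for 12 astrocyte genes, 0.16 for 7 of 9 oligodendrocyte precursor genes, 0.15 for 10 of 12 tanycyte and ependymal genes, 0.10 for 8 of 10 immature neuron genes and -0.14 for 8 neuron genes. They were 0.12 for 9 microglia genes, 0.01 for 6 of 10 endothelial genes and 0.03 for 9 of 13 choroid plexus and pituitary genes. Of the astrocyte genes 7 were higher and 5 lower, and the highest, Sparcl1 and S100b, had 5840 ± 1477 against 6200 ± 1530 and 3097 ± 348 against 4004 ± 931 normalized counts, with overlapping groups. The endothelial genes had a summed level of 112 to 126 in controls and 131 to 145 after cannabis, without overlap, but 3 of the 6 genes were higher and 3 lower and none passed. The difference in that sum was carried by Flt1, with 71.0 ± 7.32 in controls and 95.7 ± 12.7 after cannabis, whose groups overlapped.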

How the data were processed

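WTTS-Seq libraries of 4 air-treated and 4 cannabis-exposed rats were analysed, grouped by the sample labels. For each library the authors deposited a signal value for every APA site, a normalized count. They had trimmed the leading Ts of reads that passed the FASTX Toolkit, aligned them with TMAP to Rnor_6.0 (also the build in the submitters' processing notes), clustered read ends into sites, kept sites of at least 16 reads, assigned symbols with Cuffcompare and divided by DESeq2 size factors. Libraries were joined by row order. Reads were recovered from the smallest step of each library, and 100% of the values were whole within 0.001 reads. Site levels, gene totals and site usage (log2 of site + 1 over rest of gene + 1) were tested with limma 3.58.1 (lmFit and eBayes with a trend, R 4.3.3) on log2(normalized count + 1) over all sites or symbols, with Benjamini-Hochberg adjustment. P under 0.01 or adjusted P under 0.1 was a call. Fold changes on this scale understate changes of low sites. Two-sided exact permutation tests compared 4 with 4 libraries. Alternatives used edgeR 4.0.16 and DESeq2 1.42.0 on recovered reads. Other steps ran in Python 3.11.15 with scipy 1.17.1. Intervals of shares (95% Wilson) and limits (3 reads) cover counting error only, since reads carried no molecular identifiers.

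The Sox genes named are all members, with their highest sites and those with P under 0.01. Of each gene list, the highest genes and those with P under 0.01 were eligible to be named, and some values are not reported here. Members and gene lists were chosen with earlier results of these data known. Sox6 site 5 and Sox5 site 23 also stand in the study's site tables, which were chosen on these samples, so their direction is not independent evidence. No Sox5 or Sox6 site is in the study's shorter list, kept after filtration and in silico checks. Tested on simulated data with a log2 change of 2 and a dispersion of 0.2, the fit over 98356 sites found 90% of 200 changed sites and the usage fit over 57287 sites found 67.5%. The changed sites were drawn only from sites at higher levels than most Sox sites. These shares therefore do not apply to weak sites such as those called. Replicate numbers were not treated as pairs in the main fit. Same-numbered libraries correlated at -0.23 to 0.0803 in their deviations from the group means, and differently numbered ones at -0.35 to 0.47. With only 3 same-numbered pairs, these values cannot settle whether the libraries were paired.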

Additional observations from a re-analysis of the deposited data

Results flagged for a closer look

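A single library stood apart from the other 3 of its group by Dixon's test in 3 of 58 groups of Sox values tested. Chance flags about 1 in 20 groups, a rate that does not hold where several values are 0. In each of the 3 flagged groups the other values were all 0. The ratio tested, the gap over the range, is then 1 whatever the single value is, so the zeros fixed these flags. The Sox1 total was 15.28 normalized counts, from 23 reads, in cannabis replicate 2 and 0 in the other cannabis libraries. The level of Sox5 site 23 was 0.731 normalized counts, 1 read, in air control replicate 1 and 0 in the other controls. Its share of Sox5, from the same read, was 0.173% in that library and 0% in the others. Values from 1 read lie below the limit of 3 reads.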

How the results depend on the processing

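No Sox total had P under 0.01 under any alternative. Only without cannabis replicate 1 did a total, that of Sox9, have P under 0.05 (4.18% of all symbols did). In place of 3 sites with P under 0.01, there was 1 with the replicate block (0.233% of all sites) and 1 with limma-voom (0.264%). Leaving out the 2 shallowest libraries gave 1 (0.434%), and leaving out any 1 library gave 1 to 2 (0.231% to 0.627%). DESeq2 gave 2 (0.316%), as did adding 5 in place of 1 before the logarithm (0.377%). The number was 3 with edgeR (0.526%) and 4 with limma without the trend (0.451%). These were not always among the 3: without air control replicate 2 they were Sox6 sites 5 and 1. In usage, 2 calls became 0 with the replicate block (0.253% of the sites tested) and 0 without the 2 shallowest libraries (0.503%). They became 1 to 2 without any 1 library (0.274% to 0.683%) and 3 without the trend (0.442%). With the replicate number as a block, Sox6 site 5 and Sox5 site 23 missed the threshold in level and share. Replicate numbers were shared by 3 pairs whose libraries did not deviate together. Air control replicate 4 and cannabis replicate 5 have no match, so every value with the block rests on those 3 pairs. At the depth of the shallowest library the difference in sites with a read, cannabis minus control, was -0.1355 for Sox4, -0.2697 for Sox10 and -0.0063 for Sox11 in place of 0, and -0.3057 for Sox6 in place of 1. None of these passed a test.

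Uncalled values that changed sign, as log2 fold changes, were -0.2607 for the Sox1 total with limma-voom. With the block they were 0.0224 for the Sox6 total, 0.0791 for Sox2 site 1 and 0.1834 for the share of Sox10 site 1. Without the 2 shallowest libraries they were -0.0028 for the Sox10 total, -0.1355 for Sox11 site 1 and 0.0113 for the share of Sox10 site 1. Leaving out 1 library at a time, totals ranged from -0.86 to 0.57 (Sox1), -0.53 to 0.0372 (Sox2), -0.0895 to 0.23 (Sox4), -0.0887 to 0.15 (Sox10) and -0.0015 to 0.26 (Sox11). Levels of site 1 ranged from -0.16 to 0.21 (Sox10), -0.13 to 0.29 (Sox11), -0.51 to 0.15 (Sox2) and -0.0329 to 0.55 (Sox4). Shares of site 1 ranged from -0.30 to 0.12 (Sox10), -0.61 to 0.15 (Sox11), -0.10 to 0.70 (Sox2), -0.16 to 1.06 (Sox4) and -0.0341 to 0.87 (Sox9). The correlations ranged from -0.57 to 0.0866 (Sox4 with Sox11) and -0.26 to 0.47 (Sox5 with Sox6). The filter on means of 10 or more kept 18 sites, with 0 calls in level and 0 in usage, but it removed all called sites before the test, so it says nothing about them. For the other changes in counts the cause was not tested.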
